A study of Mustela putorius furo with 2 samples.

Results

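The genes described here encode the proteins of the cytosolic ribosome, the particle that translates messenger RNA outside mitochondria. They were chosen by name alone: every row of the count matrices whose symbol is RPL or RPS followed by a digit, or RPSA, RPLP0, RPLP1 or RPLP2, without the RPS6K kinases. The rule found 36 of 28156 features, 22 of them with RPL symbols (large subunit) and 14 with RPS symbols (small subunit), each on 1 row. The ferret gene table from RefSeq holds 81 symbols that match the same rule. Of these, 34 had a row under that symbol and 47 did not, among them RPLP0, RPSA and RPS6, so the sum below covers the named rows and not the whole ribosome. RPLP1 and RPS12 were members without an entry in that table. RPL7L1, a factor of pre-ribosomal RNA processing, and RPS19BP1, a binding partner of RPS19, match the rule by symbol but are not proteins of the mature particle. RPL3L, RPL10L, RPL22L1 and RPL26L1 are paralogs of core ribosomal proteins.

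The study profiled single nuclei of ferret somatosensory cortex with droplet capture. Both libraries carry the genotype label DCX knockout, whereas the series text speaks of knocked-down DCX, a microtubule-associated protein of migrating neurons. One library came from the upper band of the cortex and 1 from the deeper band. There was 1 library per band, no wild-type tissue was analysed here, and the labels give no age, sex, number of animals or agent, so a difference between bands cannot be told apart from a difference between these 2 preparations. No test was made and no p-value is given. All intervals are exact 95% intervals for counting error only.

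In mammalian cells, a ribosome is built from a large and a small subunit, each a scaffold of ribosomal RNA with many proteins bound to it. Messages of ribosomal proteins are among the most abundant of the cytoplasm. They begin with a pyrimidine-rich tract through which mTORC1 signalling sets their translation. A nucleus holds only those copies that have not been exported, plus whatever cytoplasmic or free RNA was carried into the droplet, so counts here are not a measure of the cell's ribosome content.

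After nuclei with under 500 detected genes and called doublets were left out, 6261 upper-band and 8150 deeper-band nuclei remained, with 52352189 and 53363232 unique molecular identifiers (UMIs) and medians of 7992 and 4887.5 UMIs per nucleus. The matrices share 24 barcodes. DCX had 78.5 CPM (UMIs of a gene per 1000000 UMIs, of the library here and of the class of nuclei below) in the upper-band library against 77.2 CPM in the other, which checks neither label, since both libraries carry the same one. Nuclei were grouped into 27 clusters without use of the ribosomal protein genes, and 23 clusters were named from marker genes, here with the ending "-like".

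Ribosomal protein genes took a small share of nuclear UMIs, and that share was higher in glia-like than in neuron-like nuclei. The 36 genes together gave 52537 UMIs in the upper band, 1004 CPM (995 to 1012), and 65504 in the deeper band, 1228 CPM (1218 to 1237). Excitatory-neuron-like nuclei had the lowest level of the 5 classes with at least 100 nuclei in both bands, at 877.7 CPM (868.3 to 887.3) in the upper and 1068 CPM (1058 to 1078) in the deeper band. Inhibitory-neuron-like nuclei followed at 996.2 CPM (975.2 to 1018) and 1288 CPM (1260 to 1317). Both neuronal classes lay below all 3 glial classes within each band.

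Among glia, oligodendrocyte-like nuclei had 1590 CPM (1537 to 1645) in the upper and 2022 CPM (1979 to 2065) in the deeper band. Astrocyte-like nuclei had 1408 CPM (1342 to 1477) and 1835 CPM (1776 to 1896). Oligodendrocyte-precursor-like nuclei had 1327 CPM (1213 to 1449) and 1780 CPM (1662 to 1904), and their intervals overlapped those of the astrocyte-like class in both bands. Microglia-like nuclei, only 47 and 66 of them, had 2640 CPM (2300 to 3017) and 2898 CPM (2545 to 3288). Relative to excitatory-like nuclei of the same band, the log2 ratio in the upper and the deeper band was 0.86 and 0.92 for oligodendrocyte-like, 0.68 and 0.78 for astrocyte-like, 0.60 and 0.74 for precursor-like and 0.18 and 0.27 for inhibitory-like nuclei.

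**Figure D1:**
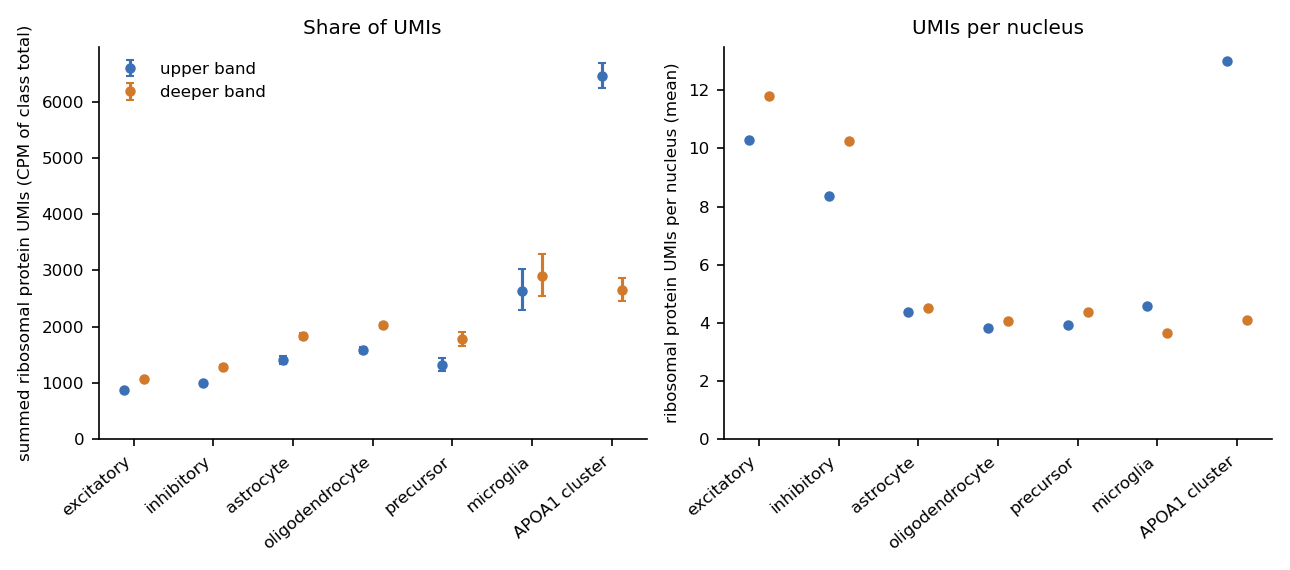
Summed UMIs of the 36 ribosomal protein genes in each class of nuclei and band, as CPM of the class total (left, points with exact 95% Poisson intervals) and as the mean number of UMIs per nucleus (right). By share the glia-like classes lie above the neuron-like classes, by number per nucleus they lie below them, and the cluster led by APOA1 has its higher level in the upper band (6461 CPM against 2650 CPM).

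The order turned around when molecules per nucleus were counted instead of the share. An excitatory-like nucleus held on average 10.3 ribosomal protein UMIs in the upper and 11.8 in the deeper band, and an inhibitory-like nucleus 8.36 and 10.3. Astrocyte-like nuclei held 4.37 and 4.53, oligodendrocyte-like nuclei 3.84 and 4.06, and precursor-like nuclei 3.93 and 4.38. The classes also differed in depth, with medians of 10752 and 10399 UMIs per excitatory-like nucleus against 2204 and 1861 per oligodendrocyte-like nucleus. Nuclei without a single ribosomal protein UMI made up 0.786% and 0.174% of excitatory-like and 3.6% and 2.77% of oligodendrocyte-like nuclei. When each nucleus was thinned to 1500 UMIs, which left out 16 and 6 excitatory-like and 83 and 428 oligodendrocyte-like nuclei, 73.0% and 78.4% of excitatory-like against 88.7% and 94.4% of oligodendrocyte-like nuclei still had one.

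Within every one of the 5 classes the share was lower in the deepest than in the shallowest of 4 equal bins of nuclei ranked by total UMIs. In excitatory-like nuclei of the upper band it went from 1023 CPM in the shallowest bin (median 7204 UMIs) to 776.2 CPM in the deepest (median 16819 UMIs), and in the deeper band from 1288 to 965.8 CPM. In oligodendrocyte-like nuclei of the deeper band it went from 2706 to 1535 CPM, and in astrocyte-like nuclei of the upper band from 1804 to 1061 CPM. Ribosomal protein UMIs per nucleus were higher in the deepest bin, but by less than the total, going from 6.82 to 14.3 in excitatory-like nuclei of the upper band and from 3.5 to 4.56 in oligodendrocyte-like nuclei of the deeper band. A list of 12 abundant cytoplasmic messages of other functions (such as HSP90AB1 and PKM) also had a lower share in the deepest bin, 796.1 against 673.2 CPM in excitatory-like upper-band nuclei, and 1884 against 1182 CPM in oligodendrocyte-like nuclei of the deeper band. The 25 ribosome biogenesis genes were lower in the deepest bin in 5 of 6 pairs of a glia-like class and a band, for example 719.3 against 594.4 CPM in astrocyte-like upper-band nuclei. They were higher there in all 4 pairs of a neuron-like class and a band, by as little as 674.6 against 675.2 CPM in excitatory-like upper-band nuclei.

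**Figure D2:**
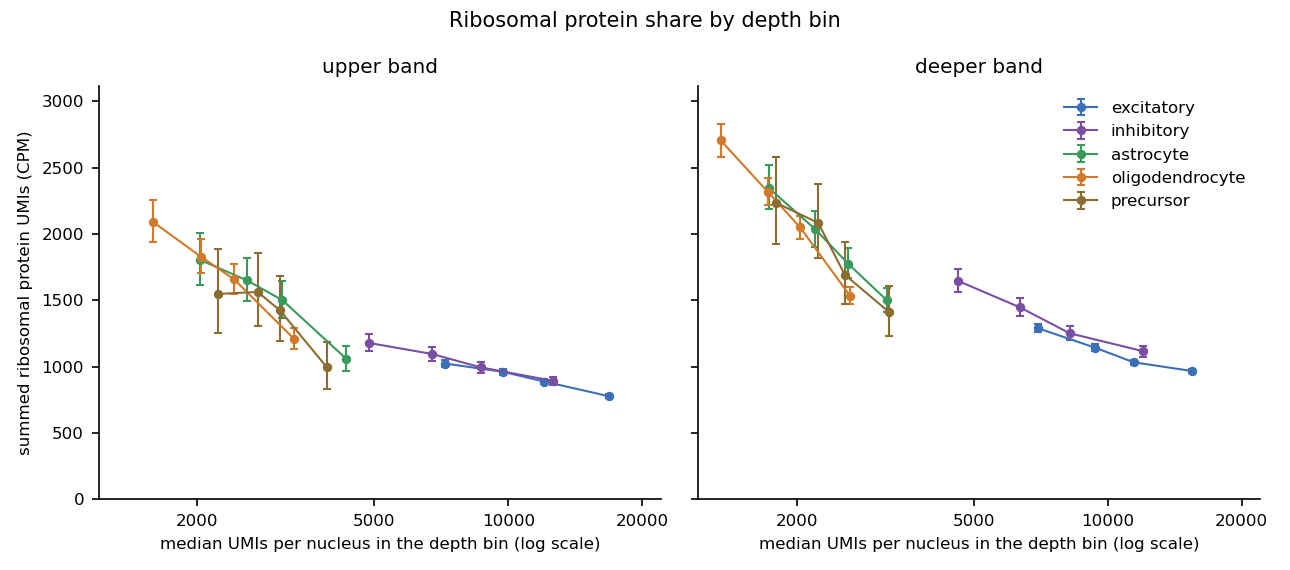
Summed ribosomal protein UMIs (CPM, exact 95% Poisson intervals) in 4 equal bins of nuclei ranked by total UMIs within each class, against the bin's median total on a log axis, for the upper band (left) and the deeper band (right). The share is lower in the deepest than in the shallowest bin in all 5 classes, for example 1535 against 2706 CPM in deeper-band oligodendrocyte-like nuclei.

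Because of this slope, classes were also read within common windows of total UMIs, which narrowed the gap in depth but did not close it. Among nuclei with 4000 to 8000 UMIs, excitatory-like nuclei had 1054 and 1293 CPM, inhibitory-like 1097 and 1464 CPM, astrocyte-like 981.7 and 1242 CPM, and oligodendrocyte-like 949.5 and 999.3 CPM. In that window neither of these 2 glia-like classes was above a neuron-like class of the same band, and precursor-like nuclei were too few to be read. The mean total there was 6762 and 6694 UMIs in excitatory-like nuclei, 5093 and 4708 in astrocyte-like and 5163 and 4803 in oligodendrocyte-like nuclei, of which the window held only 59 and 26 and 51 and 60. Among nuclei with 2000 to 4000 UMIs, a range that holds only 59 and 74 excitatory-like nuclei, excitatory-like nuclei had 1016 and 1221 CPM, inhibitory-like 1408 and 1881 CPM, astrocyte-like 1585 and 1767 CPM, and oligodendrocyte-like 1596 and 1782 CPM. Excitatory-like nuclei were lowest there, while inhibitory-like nuclei of the deeper band were above both glial classes. Among upper-band nuclei with 1000 to 2000 UMIs, only 22 were excitatory-like, at 672.9 CPM (421.7 to 1019). Astrocyte-like nuclei had 1634 CPM and oligodendrocyte-like nuclei 1987 CPM in that band and window. Deeper-band excitatory-like nuclei were too few there to be read. The windows take the deepest glia and the shallowest neurons, and the part of depth in the class order was not tested.

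Markers of neurons were also found in other classes, and their summed level differed between classes. The 12 excitatory neuron markers summed to 4067 and 4712 CPM in excitatory-like nuclei, 1827 and 1833 CPM in astrocyte-like, 807.6 and 731.7 CPM in inhibitory-like, 627.9 and 602.2 CPM in oligodendrocyte-like and 557.6 and 620.6 CPM in precursor-like nuclei. The inhibitory neuron markers, 12 with a row, summed to 167 and 126.7 CPM in excitatory-like, 1151 and 1042 CPM in astrocyte-like, 1901 and 1734 CPM in oligodendrocyte-like and 1796 and 1582 CPM in precursor-like nuclei. Not every marker added to these sums. NEUROD2 was at 0 in astrocyte-like nuclei of both bands, and SLC32A1 and NXPH1 were at 0 in oligodendrocyte-like nuclei of both bands. What each marker added is not given here. Free RNA was not measured, and the part of RNA from other cells in the ribosomal protein counts was not tested.

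Across clusters with their bands kept apart, the summed share followed the abundant cytoplasmic messages more closely than genes of ribosome assembly, by both measures of correlation. Over 25 upper-band and 26 deeper-band clusters, Pearson's r of log levels was 0.94 and 0.91 with the abundant cytoplasmic list, 0.91 and 0.90 with 15 other translation genes, 0.61 and 0.69 with 57 mitochondrial ribosomal proteins, 0.47 and 0.63 with biogenesis genes and 0.09 and 0.23 with 15 genes of mTORC1 signalling and control of these messages. Spearman's rho was 0.84 and 0.78, 0.64 and 0.59, 0.70 and 0.74, 0.18 and 0.38, and 0.15 and 0.22 for these lists in turn, so by rank the mitochondrial list stood above the other translation genes. One upper-band cluster, at 6461 CPM, lay far from the rest. Large-subunit against small-subunit genes gave r of 0.98 and 0.96. The share had an r of −0.86 and −0.93 with the cluster's median UMIs. All points of a band come from 1 library, so these values are descriptions.

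The sum was carried by few rows. The 10 genes with most UMIs supplied 55.6% of it and the first 24 supplied 94.9%. UMIs were not corrected for transcript length, and the share of a gene says what it adds to the sum, not how strongly it is expressed relative to another. How reads that match several loci were treated is not given in the sources used here, and ribosomal protein genes have many processed copies, so single rows are uncertain to that extent.

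RPLP1, an acidic protein of the stalk through which the large subunit recruits translation factors, alone supplied 14.4% of the UMIs. It had 8071 UMIs (154.2 CPM, 150.8 to 157.6) in the upper and 8878 (166.4 CPM, 162.9 to 169.9) in the deeper band. By class its level ran from 144.9 and 152.7 CPM in excitatory-like and 144.5 and 173.6 CPM in inhibitory-like nuclei to 207.6 and 243 CPM in oligodendrocyte-like nuclei. It was higher in the deeper band in each of the 5 classes, with a log2 ratio (deeper over upper) of 0.07 in excitatory-like and 0.37 in astrocyte-like nuclei. Its stalk partner RPLP2 differed more between bands, at 31.1 and 45.8 CPM over all nuclei, a log2 ratio of 0.56 (0.47 to 0.65) against 0.11 (0.07 to 0.15) for RPLP1. The intervals of the 2 stalk genes did not overlap.

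Of the other large-subunit genes with many UMIs, RPL23, a protein of the interface between the subunits that also binds MDM2, had 56.6 and 66.9 CPM. RPL13A, known also for silencing inflammatory messages once released from the ribosome, had 37.8 and 42.2 CPM and thereby a log2 ratio of 0.16 (0.07 to 0.25). RPL8 and RPL3 sit close to the peptidyl transferase centre, where peptide bonds form. Over all nuclei RPL8 had 29.8 and 45.0 CPM and thereby a log2 ratio of 0.60 (0.50 to 0.69), and RPL3 had 24.7 and 34.6 CPM, a ratio of 0.49 (0.38 to 0.59). At the other end, RPL38, a small surface protein studied for its part in translating Hox messages, had 15.8 and 16.0 CPM, a ratio of 0.02 (−0.12 to 0.16).

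Of the small-subunit genes, RPS27A, made as a fusion with ubiquitin, had 55.2 and 65.9 CPM. RPS16 had 49.0 and 62.8 CPM. RPS23, a protein of the decoding centre, had 51.8 and 59.6 CPM. RPS12 had 44.2 and 54.9 CPM, and RPS3A had 38.8 and 41.8 CPM. All 5 were higher in the deeper band over all nuclei, with log2 ratios from 0.11 for RPS3A to 0.36 for RPS16, and all 5 intervals lay above 0.

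Several rows hardly counted. RPL22L1 had 184 and 200 UMIs against 1552 and 1758 for its paralog RPL22, and RPL26L1 had 419 and 499. RPL3L, the muscle paralog of RPL3, had 13 and 18 UMIs, and RPL10L, the testis paralog of RPL10, had 4 and 6. RPS15 had 0 UMIs in the upper and 1 in the deeper band and was the only member with a count of 0 in a library. RPL19 (176 and 186 UMIs) and RPL10A (59 and 83) are core proteins whose rows were also near empty. The 2 members outside the mature ribosome, RPL7L1 and RPS19BP1, had 392 and 387 and 117 and 134 UMIs.

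Of the 36 genes, 30 had a higher CPM in inhibitory-like than in excitatory-like nuclei, 32 in astrocyte-like, 34 in oligodendrocyte-like and 31 in precursor-like nuclei. Of all features with at least 50 UMIs over the pair of classes compared, 57.7%, 51.6%, 48.7% and 53.0% were higher in these classes. No such floor was set for the 36 genes. RPL22 was among the exceptions, at 0.82 times its excitatory-like level in inhibitory-like and 0.83 times in precursor-like nuclei, and RPL38 was at 0.82 times in inhibitory-like nuclei. Only 10 members had at least 50 UMIs in each of the 5 classes with the bands pooled. That floor leaves out genes with few UMIs in precursor-like nuclei, the class with the fewest UMIs. The tally of the 10 and their folds are therefore partly set by the floor. All 10 had a higher CPM in each other class than in excitatory-like nuclei, with a median fold of 1.2 in inhibitory-like, 1.76 in astrocyte-like, 2.11 in oligodendrocyte-like and 1.99 in precursor-like nuclei. Over all features with at least 50 UMIs over the pair of classes compared, the medians were 1.07, 1.03, 0.97 and 1.05. That floor is looser than the one for the 10 members, so the medians are not of like sets. The smallest fold of the 10 was that of RPLP1 in all 4 classes (1.05 to 1.55), and the largest was that of RPS3A (1.37 to 2.84).

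RPS3A, a protein of the small subunit that faces the messenger RNA exit, departed most from the sum among the 10 genes with at least 50 UMIs in every class. Genes with fewer UMIs had larger ranges, such as RPL22 at 0.97 on the log2 scale with 22 UMIs in its smallest class. RPS3A supplied 3.24% of ribosomal protein UMIs in excitatory-like, 3.88% in inhibitory-like, 4.37% in astrocyte-like, 4.34% in oligodendrocyte-like and 5.67% in precursor-like nuclei. RPLP1 went the other way, with 15.3% in excitatory-like and 14.0% in inhibitory-like nuclei but 11.6% in astrocyte-like, 12.3% in oligodendrocyte-like and 11.9% in precursor-like nuclei. RPS18 was proportionally highest in precursor-like nuclei, on 53 UMIs, and RPS12 was proportionally lowest in excitatory-like nuclei (4.09%). The ranges over the classes, on the log2 scale, were 0.80 for RPS3A, 0.48 for RPS18, 0.41 for RPS12 and 0.39 for RPLP1.

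**Figure D3:**
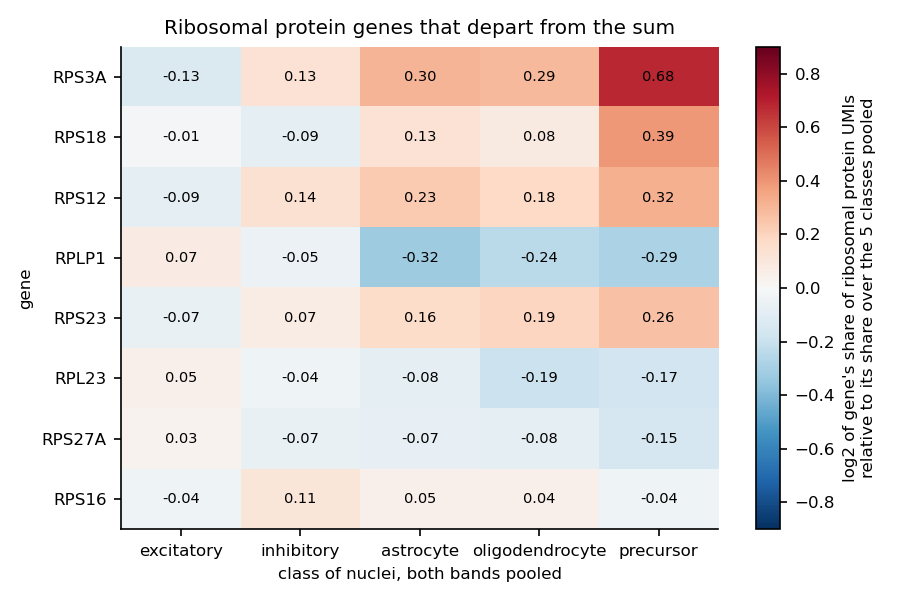
Share of each gene in the summed ribosomal protein UMIs of a class, relative to its share over the 5 classes pooled (log2), for 8 of the 10 genes with at least 50 UMIs in each class and both bands pooled. RPLP1 is below 0 in the 3 glia-like classes and RPS3A above 0, by up to 0.68 in precursor-like nuclei.

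Between bands, ribosomal protein genes were higher in the deeper band in all 5 classes. The summed log2 ratio of deeper over upper was 0.28 (0.26 to 0.30) in excitatory-like, 0.37 (0.33 to 0.42) in inhibitory-like, 0.38 (0.30 to 0.47) in astrocyte-like, 0.35 (0.29 to 0.40) in oligodendrocyte-like and 0.42 (0.26 to 0.59) in precursor-like nuclei. In microglia-like nuclei it was 0.13 (−0.14 to 0.41). Between nuclei matched on total UMIs the ratio was 0.25 in excitatory-like and 0.36 in inhibitory-like nuclei, but 0.17 (0.06 to 0.27) in astrocyte-like, 0.17 (0.10 to 0.24) in oligodendrocyte-like and 0.23 (0.03 to 0.43) in precursor-like nuclei. The value of each of these 3 glial classes thus shrank by more than 1.5 times. The median total was lower in the deeper band in each of the 5 classes, as given for 2 of them above.

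In excitatory-like nuclei 33 of the 36 genes passed the floor of 50 UMIs over both bands. Their median log2 ratio was 0.22, 31 were above 0 and 25 had an interval above 0, whereas the median of all 15548 features was −0.03 with 45.5% above 0. At least 1.5-fold higher in the deeper band were 6 genes, of which RPL8, RPL28, RPLP2 and RPL3 had the highest ratios. That fold was passed upward by 4.2% and downward by 7.65% of all features, and 0 members passed it downward. RPL8 went from 25.1 to 39.9 CPM (log2 ratio 0.67, 0.55 to 0.79), RPL28 from 18.7 to 29.6 CPM (0.66, 0.52 to 0.80) and RPLP2 from 25.2 to 39.3 CPM (0.64, 0.53 to 0.76). At the low end stood RPL19 (−0.06, −0.44 to 0.32), RPL7L1 (−0.06, −0.31 to 0.20) and RPS3A (31.1 and 32.1 CPM, 0.05, −0.07 to 0.16).

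In inhibitory-like nuclei 30 genes passed the floor, 28 were above 0 (49.0% of all features were) and the median was 0.39. At least 1.5-fold higher were 5 genes, against 3.49% of all features, among them RPL15, RPL3 and RPL27A. None was as much lower, against 3.82%. RPL3 went from 26.2 to 40.7 CPM (0.64, 0.37 to 0.90), while RPL15 rested on 46 and 65 UMIs (0.98, 0.42 to 1.56). The lowest were RPL7L1 (−0.39), RPL26L1 (−0.17) and RPL13A (0.08), each with an interval that holds 0. RPL3 was thus past the fold in both neuronal classes.

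In astrocyte-like nuclei 26 genes passed the floor, 25 were above 0 (51.1% of all features were) and the median was 0.36. At least 1.5-fold higher were 7 genes, against 5.15% of all features, and 0 were as much lower, against 3.91%. Among the 7 were RPL36, from 24.9 to 56.3 CPM (1.18, 0.59 to 1.81), and RPL28 (0.65, 0.08 to 1.24), both on fewer than 120 UMIs per band. Among the lowest were RPL38 (−0.45, −1.14 to 0.25) and RPS15A (0.04). A cluster led by CD44 and GFAP, genes of fibrous and reactive astrocytes, held 2 upper-band and 79 deeper-band nuclei at 2876 CPM (2606 to 3167) in the deeper band. Without it the summed ratio was 0.32 (0.23 to 0.40), and 4 of 26 genes were past the fold, against 4.47% of all features. With nuclei matched on total UMIs the count was 1 and the median 0.13, and with nuclei thinned to 1500 UMIs they were 2 and 0.23.

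In oligodendrocyte-like nuclei 29 genes passed the floor, 27 were above 0 (50.4% of all features were) and the median was 0.36. At least 1.5-fold higher were 3 small-subunit genes, against 4.07% of all features, and 0 were as much lower, against 3.0%. RPS15A went from 41.8 to 67.4 CPM (0.69, 0.34 to 1.05) and RPS16 from 71.1 to 110.8 CPM (0.64, 0.37 to 0.92), while RPS29 had only 18 and 55 UMIs (0.60, −0.19 to 1.46). With nuclei matched on total UMIs 1 gene was past the fold and the median was 0.18. RPL38 (−0.39), RPS3A (−0.05) and RPL3 (0.04) were lowest, with intervals that hold 0. The class was made of a cluster led by CASR, at 1495 and 1775 CPM, and one led by OPALIN, a gene of mature myelinating cells, at 2097 and 2572 CPM. OPALIN was also among the 10 leading genes of the CASR cluster, and CASR among those of the OPALIN cluster. Median totals were 2393 and 2118 UMIs in the CASR cluster and 1663 and 1532 UMIs in the OPALIN cluster. The part of depth in their difference was not tested. The OPALIN cluster held 205 of 862 upper-band and 842 of 2092 deeper-band nuclei of the class, and the ratios within the clusters were 0.25 (0.18 to 0.32) and 0.29 (0.18 to 0.41). Past the fold upward were 2 of 27 genes in the CASR cluster, against 3.61% of all features, and 7 of 24 in the OPALIN cluster, against 9.14%.

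In precursor-like nuclei, 126 and 193 in number, only 10 genes passed the floor and 9 of them were above 0 (50.5% of all features were), with a median of 0.53. RPS18 (0.99, 0.10 to 1.96), RPS16, RPS27A and RPS3A were at least 1.5-fold higher, against 5.0% of all features (4.2% were as much lower, and 0 members), and of these only RPS18 had an interval above 0. The floor pools both bands, and RPS18 passed it on 15 and 38 UMIs and RPS16 and RPS27A on 21 and 45 each. The tallies and the median of this class are thus partly set by the floor. Among the lowest were RPS23 (0.09) and RPLP1 (0.20). With each nucleus thinned to 1500 UMIs the median was −0.19, and with nuclei matched on total UMIs it was 0.03 with 0 genes past the fold.

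**Figure D4:**
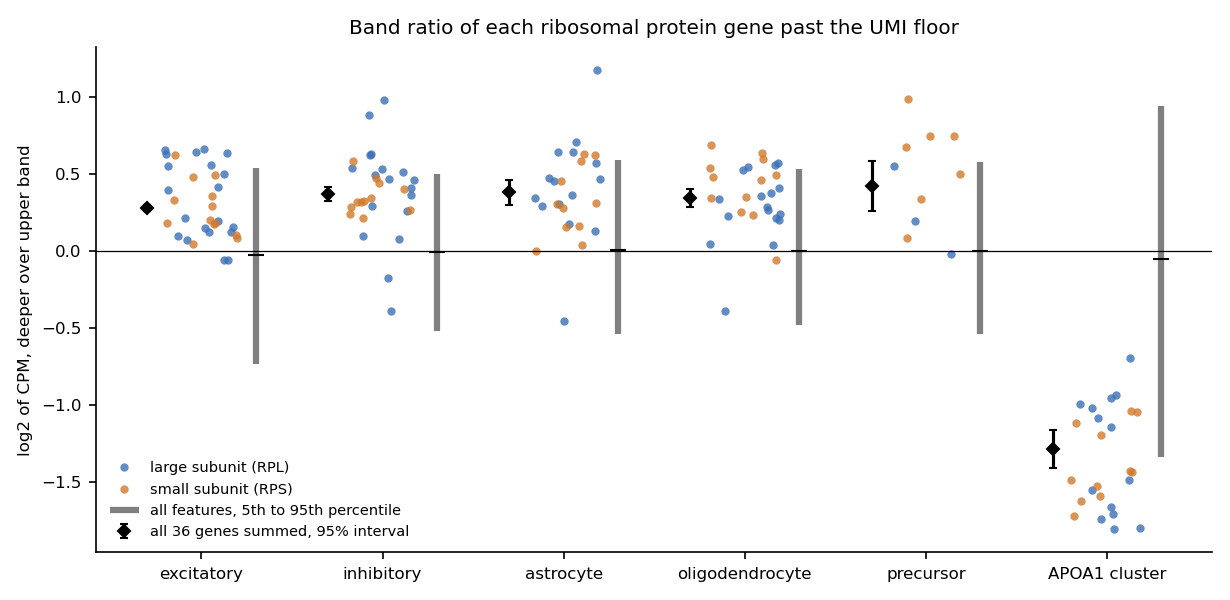
Log2 ratio of CPM, deeper over upper band, for each ribosomal protein gene past the floor of 50 UMIs in a class (points, coloured by subunit), for the 36 genes summed (diamonds, exact 95% intervals) and for all features (grey bars, 5th to 95th percentile, with the median as a tick). Most points lie above 0 in the 5 named classes and all 25 points of the APOA1 cluster lie below 0.

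Large- and small-subunit genes had band ratios whose intervals overlapped. Large-subunit genes summed to a ratio of 0.30 (0.27 to 0.33) and small-subunit genes to 0.26 (0.23 to 0.29) in excitatory-like nuclei, and to 0.39 (0.33 to 0.45) and 0.34 (0.28 to 0.41) in inhibitory-like nuclei. In oligodendrocyte-like nuclei the values were 0.30 (0.22 to 0.38) and 0.40 (0.32 to 0.49).

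The band difference was present within layers and interneuron groups. Upper-layer-like excitatory subclusters, named from markers such as CUX2, had 882.3 and 1059 CPM (0.26, 0.23 to 0.30), deep-layer-like ones, named from markers such as FOXP2 and TLE4, had 961 and 1190 CPM (0.31, 0.25 to 0.37), and the other excitatory subclusters had 838.1 and 1062 CPM (0.34, 0.30 to 0.38). The deep-layer-like level was above the upper-layer-like level within both bands. Deep-layer-like nuclei also had lower median totals, 9622 and 9393.5 UMIs against 11541 and 10685. The part of depth in this difference was not tested. One gene of the upper-layer-like nuclei, RPL10A, was at least 1.5-fold lower in the deeper band (−0.60), against 3.85% of all features, and 6 of 33 were higher, against 3.47%. In deep-layer-like nuclei 7 of 29 genes were at least 1.5-fold higher, against 6.46% of all features, and in the other excitatory subclusters 9 of 32, against 4.43%. Interneuron-like subclusters of medial ganglionic eminence type had 1089 and 1378 CPM (0.34, 0.25 to 0.43), and those of caudal type had 1051 and 1452 CPM (0.47, 0.37 to 0.57). Of the genes past the floor 4 of 24 were at least 1.5-fold higher in the medial type, against 4.66% of all features, 8 of 24 in the caudal type, against 6.24%, and 4 of 28 in the remaining inhibitory-like nuclei, against 3.26%. Subclusters with under 3 raised markers of a list were not named. The other excitatory and remaining inhibitory-like nuclei thus include subclusters whose best match was one of these lists. The values are those of the named subclusters, not of all nuclei of a layer or type.

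Other lists put these values beside genes of related roles. The other translation genes were higher in the deeper band with a summed ratio of 0.26 (0.23 to 0.28) in excitatory-like nuclei, with 15 of 15 above 0, and 0.22 in inhibitory-like, 0.28 in astrocyte-like and 0.15 in oligodendrocyte-like nuclei. EEF2, the elongation factor that moves the ribosome along, had 52.7 and 68.9 CPM in excitatory-like nuclei (0.39, 0.30 to 0.47), and EIF3H, an initiation factor subunit, had 61.5 and 69.0 CPM (0.17). NAP1L1, a histone chaperone whose message is regulated like those of ribosomal proteins, had 315.7 and 356.4 CPM (0.17).

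Abundant cytoplasmic messages differed more than ribosomal protein genes in neurons, with a summed ratio of 0.60 (0.58 to 0.62) in excitatory-like and 0.64 (0.59 to 0.69) in inhibitory-like nuclei, and less in glia, with 0.31 (0.22 to 0.40) in astrocyte-like and 0.19 (0.13 to 0.26) in oligodendrocyte-like nuclei. The chaperone HSP90AB1 had 143.5 and 225.5 CPM in excitatory-like nuclei, and PKM, a glycolytic enzyme, had 81.0 and 102.5 CPM. Whether more cytoplasmic carry-over in the deeper-band library accounts for any of this was not tested.

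Genes that make or control ribosomes had smaller ratios or ratios of the other sign. Biogenesis genes, which include the nucleolar proteins NOP56 and NOP58 and the polymerase I factor TAF1B, summed to ratios of 0.02 in excitatory-like, 0.06 in inhibitory-like, −0.01 in astrocyte-like and 0.09 in oligodendrocyte-like nuclei. Mitochondrial ribosomal proteins, which serve the organelle's own ribosome, gave 0.12, 0.08, 0.03 and 0.14. Of these, MRPS6 had 225.1 and 296.5 CPM in excitatory-like nuclei (0.40), while MRPL1 had 142.9 and 144.5 CPM and MRPS28 had 86.1 and 90.1 CPM. The mTORC1 list was lower in the deeper band, at −0.17 (−0.19 to −0.15) in excitatory-like, −0.08 in inhibitory-like, −0.07 in astrocyte-like and −0.10 in oligodendrocyte-like nuclei. RPTOR, the scaffold of mTORC1, had 148.3 and 112.7 CPM in excitatory-like nuclei (−0.40), and MTOR had 108.1 and 103.9 CPM (−0.06). RICTOR, which belongs to the other mTOR complex, had 151.1 and 142 CPM (−0.09).

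One cluster went the other way. It held 268 upper-band and 155 deeper-band nuclei and was led by APOA1, ITIH4, PRDM6, MECOM and NID1. Its median of 1163 and 1120 UMIs was far below that of its libraries and no vascular marker was among its 10 leading genes, so it was not named, although the 11 vascular markers summed to 2100 and 2671 CPM in it against 37.7 and 36.7 CPM in excitatory-like nuclei. COL1A1 was at 0 in its deeper-band nuclei. Ribosomal protein genes were at 6461 CPM (6249 to 6679) in its upper-band and 2650 CPM (2448 to 2865) in its deeper-band nuclei, a log2 ratio of −1.29 (−1.41 to −1.16). The upper-band level was the highest of all classes and clusters, and the deeper-band level was close to that of microglia-like nuclei.

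All 25 genes that passed the floor in this cluster were at least 1.5-fold lower in the deeper band, against 18.6% of its 3865 features called lower and 13.6% called higher. Their median ratio was −1.44, and all 25 intervals lay below 0, whereas 46.1% of all features were above 0. The floor pools both bands, and the cluster had 3490 ribosomal protein UMIs in the upper and 635 in the deeper band. Genes thus passed it mostly on upper-band counts, and the count of 25 is partly set by the floor. RPLP1 had 428 UMIs (792.4 CPM) in the upper and 86 (358.9 CPM) in the deeper band (−1.14, −1.49 to −0.81). RPS12 had 222 and 32 UMIs, at 411 and 133.6 CPM (−1.62), RPL23 had 372.1 and 192 CPM (−0.95), and RPLP2 had 292.5 and 83.5 CPM (−1.81). The smallest difference was that of RPL32 (155.5 and 96.0 CPM, −0.70, −1.43 to −0.02). The summed difference thus had the opposite sign to that of the 5 named classes, and the difference between the groups was not tested.

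In this cluster the medians of total UMIs were close between bands, but the means were 2015 and 1546 UMIs per nucleus, and the deepest of 4 bins had medians of 2934 and 1710 UMIs. That bin held 1813 of the 3490 ribosomal protein UMIs of the upper band, at 5492 CPM against 1846 CPM in the deeper band, and the shallowest bin had 11299 and 4829 CPM. With nuclei matched on total UMIs the ratio was −1.35 (−1.49 to −1.21). Without doublet removal it was −0.84, over 1.5 times smaller. A mean of 13.0 ribosomal protein UMIs per nucleus in the upper band stood against 4.1 in the deeper band, with medians of 6 and 3. In 82 of the 268 upper-band and 7 of the 155 deeper-band nuclei, ribosomal protein genes exceeded 1% of UMIs. Among all other nuclei 2 of 5993 and 0 of 7995 did so. The count of 0 allows a share of up to about 0.0375%, taken as 3 nuclei of 7995, an approximate limit and not an exact interval. The cluster held 4.28% of upper-band nuclei and 6.64% of that library's ribosomal protein UMIs, and 1.9% and 0.969% in the deeper band.

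The other gene lists did not show a difference of this size in the cluster. The other translation genes summed to 1888 and 1402 CPM (−0.43, −0.61 to −0.25), the abundant cytoplasmic messages to 1979 and 2016 CPM (0.03, −0.13 to 0.18), the biogenesis genes to 733.2 and 868.1 CPM (0.24) and the mitochondrial ribosomal proteins to 1940 and 1745 CPM (−0.15). Excitatory neuron markers were at 1514 CPM in its upper-band and 2596 CPM in its deeper-band nuclei, and oligodendrocyte markers at 1776 and 555.1 CPM. The part of these in the result was not tested.

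Clustered again on its own, it fell into 9 parts of unlike make-up in the 2 bands. A part led by TM4SF18 and ADGRF2 held 49 upper-band and 36 deeper-band nuclei and most UMIs of the endothelial markers FLT1 (370 and 378), VWF (135 and 86) and PECAM1 (54 and 37). CLDN5, another marker of the vascular list, had only 1 UMI per band in this part. Its ribosomal protein share was 12332 CPM (11552 to 13152) in the upper and 3935 CPM (3359 to 4581) in the deeper band, from 928 and 166 UMIs, or 18.9 and 4.61 per nucleus. Its medians of 1223 and 1119 UMIs were alike, and its cytoplasmic list was at 2684 and 2371 CPM. The other translation genes were at 2844 and 1802 CPM in this part, also lower in the deeper band. A part led by SCTR and MYOM3, which held most of the mural-cell markers RGS5 (30 and 26 UMIs) and NOTCH3 (7 and 4), had 7409 CPM (6568 to 8328) in 27 nuclei and 3384 CPM (2675 to 4224) in 21 nuclei.

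A part led by FMO1 and MSX1, with 61 UMIs of the fibroblast gene DCN, was found in 45 upper-band nuclei and no deeper-band nucleus, had 9228 CPM (8681 to 9802) and supplied 30.3% of the cluster's ribosomal protein UMIs in that band. A part led by TNFAIP6 and SLC2A10, also with DCN (38 and 21 UMIs), had 4341 CPM (3849 to 4878) in 36 and 2539 CPM (1830 to 3432) in 12 nuclei. COL1A1 was at 0 in the FMO1 and the TNFAIP6 part, while COL1A2 had 15 UMIs in the first and 18 and 4 in the second. The endothelial marker FLT1 was also found there, with 36 UMIs in the FMO1 part and 25 and 3 in the TNFAIP6 part. A part led by OLFM2 and PCBD1, with the lowest medians (679 and 652.5 UMIs), had 13119 CPM (11854 to 14483) in 43 upper-band nuclei and 10004 CPM in 4 deeper-band nuclei. A part led by MARCHF4 and HTR2C that lacked vascular markers but for single UMIs had 4425 CPM (3743 to 5195) in 33 and 3385 CPM (2906 to 3920) in 46 nuclei. Of the 5 parts with at least 10 nuclei in both bands, each was lower in the deeper band, and the intervals overlapped in the MARCHF4 part alone.

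**Figure D5:**
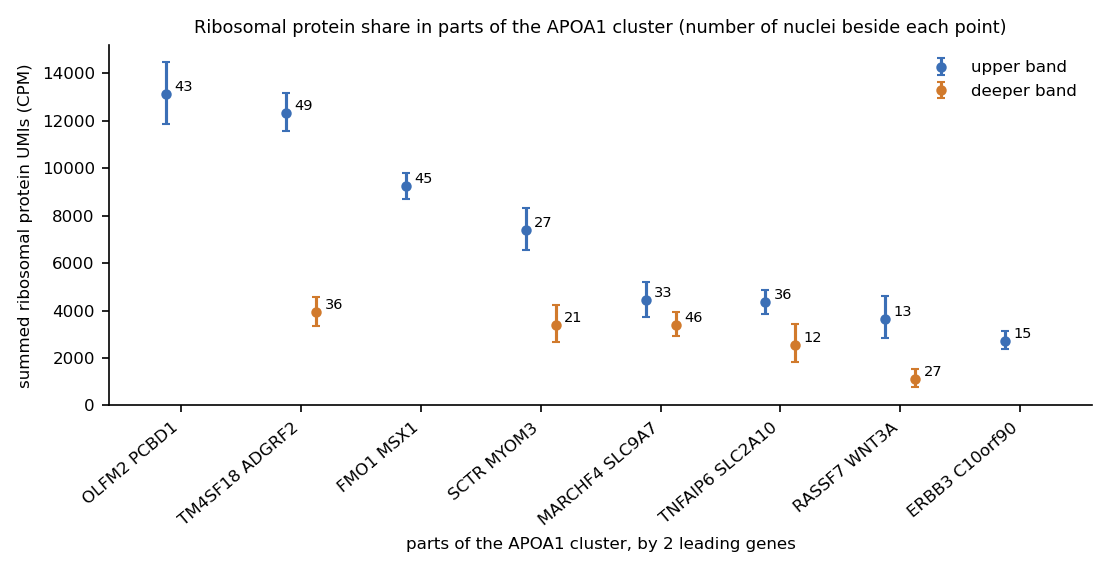
Summed ribosomal protein UMIs (CPM, exact 95% Poisson intervals) in the parts of the APOA1 cluster, labelled by 2 leading genes, in the upper and the deeper band, with the number of nuclei beside each point and points of under 10 nuclei left out. The part led by TM4SF18 that holds most FLT1 UMIs has 12332 CPM in the upper and 3935 CPM in the deeper band.

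The other 3 unnamed clusters had levels within the range of the named ones. A cluster with astrocyte and oligodendrocyte markers had 884.2 and 1150 CPM (0.38), and one with microglia and oligodendrocyte markers 923.3 and 1119 CPM (0.28, 0.14 to 0.41). One led by ABCA9 had 1239 and 1743 CPM (0.49, 0.29 to 0.70). Its oligodendrocyte markers summed to 14890 and 14671 CPM, against 13417 and 13626 CPM in the named oligodendrocyte-like class. It was left unnamed because the newly formed oligodendrocyte marker ENPP6 was among its 10 leading genes and no marker of the oligodendrocyte list was. The 830 and 1458 nuclei called as doublets and left out had 848.7 and 1131 CPM.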

How the data were processed

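Single-nucleus libraries of 2 bands of ferret somatosensory cortex, both labelled DCX knockout, were analysed. The deposited matrices hold unscaled UMI counts, for every feature and barcode, per the file headers and the values, which are whole numbers. Cell Ranger 2.1.1 and 6.2.1 are named in the submitters' processing notes, and the matrix header gives software version 3.1.0. Genome build, annotation release and treatment of intronic reads are not given in the sources used here. Gene symbols are those of the feature lists in the deposit.

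Barcodes needed 500 detected genes to be kept. Doublets were called per library with Scrublet in scanpy 1.11.5 (expected rate 0.8% per 1000 nuclei), which removed 830 (11.7%) and 1458 (15.2%) nuclei. Nuclei were clustered together (2000 variable genes, 30 principal components, 15 neighbours, Leiden resolution 1), without the ribosomal protein genes, and clusters were named from marker lists. UMIs were summed per class and band and given as CPM. Exact Poisson, Clopper-Pearson and conditional binomial intervals at 95% cover counting error only. A gene was called at 1.5-fold if it had 50 UMIs over both bands in the class. This floor pools both bands, so a gene near it can pass mostly on the counts of 1 band. The ratio code was tested on simulated counts. No test was possible with 1 library per band.

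Genes named are the 10 with most UMIs, the 3 highest and 3 lowest ratios per class, the 5 that depart most from the sum over classes, paralogs, members at 0, and the 3 genes with most UMIs of each other list. Genes called in counts of 7 or fewer, the values of RPLP2, RPL3 and RPL38 over all nuclei, those of RPL22 and RPL38 by class and the genes of the APOA1 cluster were chosen after their values were seen. Members, lists and rules were chosen with earlier results of these data known. Alternatives are given in the closing section. No sequence is printed, since none was used here. Some genes that this rule takes are counted in the sums but not reported here by name.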

Additional observations from a re-analysis of the deposited data

Results flagged for a closer look

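The summed ribosomal protein genes were higher in the deeper band in 6 of the groups with at least 100 nuclei in both bands and lower in 1, with intervals clear of 0 in each. The log2 ratio of deeper over upper band was 0.28 in excitatory-like, 0.37 in inhibitory-like, 0.38 in astrocyte-like, 0.35 in oligodendrocyte-like and 0.42 in precursor-like nuclei, and 0.28 in the unnamed cluster with microglia and oligodendrocyte markers. In the cluster led by APOA1 it was −1.29 (−1.41 to −1.16). The difference between these groups was not tested, since each band is 1 library.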

How the results depend on the processing

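No paired analysis was possible because there is 1 library per band, and the numbers in the titles sit on different bands. For the same reason leaving out a library was not run. Of 387 comparisons of 32 results with an alternative, 327 kept their value within its counting error (counts within 1.5 times), 59 moved and 1 changed sign. Matching on depth and the alternatives on the CD44 and GFAP, ENPP6 and APOA1 clusters were chosen after seeing the data. The causes of the changes were not tested.

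Summed log2 ratios of deeper over upper band: in excitatory-like nuclei 0.28 became 0.25 thinned to 1500 UMIs, 0.34 without the 3 genes with most UMIs, 0.31 with median-of-ratios scaling, 0.31 in deep-layer-like subclusters and 0.25 matched on depth. In astrocyte-like nuclei 0.38 became 0.28 thinned and 0.17 matched. In oligodendrocyte-like nuclei 0.35 became 0.26 with at least 1000 genes per nucleus, 0.28 thinned and 0.17 matched, and in precursor-like nuclei 0.42 became 0.23 matched. In the APOA1 cluster −1.29 became −0.84 without doublet removal, −1.53 with 2 times as many nuclei removed and −1.54 thinned.

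The median gene's ratio in excitatory-like nuclei, 0.22, became 0.24 without doublet removal, 0.30 from averaged per-nucleus CPM, 0.25 thinned, 0.30 for mature ribosomal proteins alone, 0.32 without the 3 genes with most UMIs, 0.24 with median-of-ratios scaling, 0.26 at a floor of 20 UMIs, 0.24 in upper-layer-like and 0.38 in deep-layer-like subclusters and 0.18 matched. In inhibitory-like nuclei 0.39 became 0.43 without doublet removal. In astrocyte-like nuclei 0.36 became 0.23 thinned and 0.13 matched, and in oligodendrocyte-like nuclei 0.36 became 0.27 and 0.18. In precursor-like nuclei 0.53 became −0.19 thinned, where the sign changed, and 0.026 matched. In the APOA1 cluster −1.44 became −0.86 without doublet removal, −1.61 with 2 times as many nuclei removed, −1.29 from averaged per-nucleus CPM and −2.08 thinned.

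Counts of genes at least 1.5-fold higher went from 5 to 8 from averaged per-nucleus CPM and to 3 matched in inhibitory-like nuclei. In astrocyte-like nuclei they went from 7 to 2 thinned, 2 at a floor of 200 UMIs, 4 without the CD44 and GFAP cluster and 1 matched, in oligodendrocyte-like nuclei from 3 to 1 matched, and in precursor-like nuclei from 4 to 0 thinned, 10 at a floor of 20 UMIs and 0 matched. The count of genes at least 1.5-fold lower went from 0 to 1 in upper-layer-like excitatory subclusters, and in the APOA1 cluster from 25 to 3 thinned and 6 at a floor of 200 UMIs, where fewer genes could be called.

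Log2 ratios of a class over excitatory-like nuclei moved as follows. In the upper band inhibitory-like nuclei went from 0.18 to 0.15 without doublet removal and 0.24 without the 3 genes with most UMIs, which also gave 0.82 for astrocyte-like (0.68) and 0.97 for oligodendrocyte-like nuclei (0.86). In the deeper band inhibitory-like nuclei went from 0.27 to 0.21 without doublet removal, 0.31 from averaged per-nucleus CPM and 0.36 thinned, and astrocyte-like nuclei from 0.78 to 0.84 without the 3 genes with most UMIs. Oligodendrocyte-like nuclei went from 0.92 to 0.85 with at least 1000 genes per nucleus, 0.97 from averaged per-nucleus CPM, 0.98 without the 3 genes with most UMIs and 0.88 with the ENPP6 cluster added.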
